A study of Mus musculus with 28 samples.

Results

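The E15 molars are 6 single lower first molar tooth germs of wild type mouse embryos, 1 tooth from each of 6 embryos. They were chosen by their sample labels from the 28 samples in all. A further E15 sample, the right tooth of embryo 5, is not analysed here. The E15 teeth were set against the 7 E13 teeth, from 7 embryos, and the 7 E16 teeth, from 5 embryos, in which embryos 6 and 8 gave both their left and right molar. All 3 groups are untreated wild type embryos of the C57BL/6JOlaHsd strain, and no group carries a transgene or a deleted allele. The labels give the ages of the earlier and later groups as E13.5 and E16.5, where the names E13 and E16 are used here. The E15 labels count days from the day of the vaginal plug as E0, with no fraction of a day, so the intervals on either side of E15 are not known to be equal. Each library holds the whole tooth germ with some tissue around it, so that more cells of a type and more RNA per cell cannot be told apart. The E13 and E16 libraries are recorded as made with the Ovation Mouse Universal RNAseq System. The E15 libraries, deposited apart from them, are recorded as made with the Ovation Mouse RNAseq System. The paper names the Ovation Mouse RNAseq System for its mouse libraries, so whether the kits differed is not certain. A difference shared by all E15 teeth may therefore belong to the stage or to the library batch, and these cannot be told apart for the genes found outside the range between E13 and E16.

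The mouse molar passes from the bud stage at E13 through the cap stage at E14 to the bell stage at E16. The cap forms when a cluster of epithelial cells that do not divide, the primary enamel knot, secretes Shh, Fgf, Bmp, and Wnt signals to the dividing epithelium and mesenchyme around it. At the bell stage the crown shape is laid out, new enamel knots mark the cusps, alveolar bone and the osteoclasts that remodel it appear around the germ, and the oral surface epithelium begins to keratinize. E15 lies between the cap and the bell, and the comparison asks which of the changes between bud and bell were complete, partway, or not begun.

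The E15 libraries hold between 17572427 and 22792374 estimated counts, against 15263358 to 20164200 at E13 and 14965319 to 24056056 at E16. Of these counts, the mitochondrially encoded genes took 1.99%, 1.82%, and 0.471% in the E15 teeth of embryos 1, 3, and 4, and 6.97%, 6.67%, and 7.82% in the teeth of embryos 5, 6, and 8. The 7 E13 teeth had between 1.80% and 2.79%, and the 7 E16 teeth between 2.14% and 6.14%. The E15 teeth thus fell into 2 sets that did not overlap in this share, and the sets are given side by side in what follows. The left E16 tooth of embryo 3 also stood apart from the other E16 teeth, and it was the lowest of the 7 in Shh, Sp6, Msx2, and Wnt10a. For several of the counts that rest on it, values with and without it are therefore given.

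Of 13447 genes tested in 1 fit of the 20 teeth, 2464 (18.3%) were higher and 1141 (8.49%) were lower at E15 than at E13 (quasi-likelihood test of edgeR, adjusted p below 0.05). With DESeq2 these counts were 2411 and 1734. Between E15 and E16 far fewer genes passed the test, with 490 (3.64%) higher and 361 (2.68%) lower at E16. The whole interval from E13 to E16 gave 2923 genes (21.7%) higher and 1972 (14.7%) lower at E16. Without the left E16 tooth of embryo 3, the counts were 2954 higher and 1730 lower at E15 than at E13, and 807 higher and 584 lower at E16 than at E15. With the E15 teeth of embryos 1, 3, and 4 alone, 655 genes were lower at E15 than at E13, and with those of embryos 5, 6, and 8 alone 2569 were. Between E15 and E16, the teeth of embryos 5, 6, and 8 alone gave 1442 genes higher and 1375 lower at E16.

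Of the 4895 genes called between E13 and E16, 2560 (52.3%) were called from E13 to E15 in the direction of the whole change and not from E15 to E16. Only 300 (6.13%) were called from E15 to E16 and not from E13 to E15. In each of 387 genes (7.91%) both steps were called, and in 1648 (33.7%) neither was. In all these counts a step was counted as called only in the direction of the whole change. A step that passed the test in the opposite direction was counted as not called. The level at E15 was also tested against the midpoint of the E13 and E16 levels on the log2 scale. It was past the midpoint, nearer to E16, in 740 of the 4895 genes (15.1%), and short of it in 79 (1.61%). With the E15 teeth of embryos 1, 3, and 4 alone 428 genes were past the midpoint, and with those of embryos 5, 6, and 8 alone 2000 were.

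To place each gene, its position at E15 was computed as the share of the E13 to E16 change in mean log2 CPM (counts scaled by TMM to a common library size, as CPM) that the E15 mean had covered, so that 0 is the E13 mean and 1 the E16 mean. Positions were read for the 1691 called genes with a log2 change of 1 or more between E13 and E16, of which 1331 rose and 360 fell from E13 to E16. The median position was 0.73 for the rising genes, with quartiles of 0.564 and 0.886, and 0.623 for the falling genes, with quartiles of 0.419 and 0.890. The order of these medians depended on the scale. On linear CPM the falling genes had the higher median, as given further on. A position within 0.25 of 1 was called complete, and 554 rising genes (41.6%) and 102 falling genes (28.3%) had one. A position from 0.25 to 0.75 was called partway, which held for 624 rising (46.9%) and 192 falling genes (53.3%). A position between -0.25 and 0.25 was called not begun, for 86 rising (6.46%) and 34 falling genes (9.44%). A further 86 genes lay beyond the E16 level and 13 lay beyond the E13 level.

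**Figure D1:**
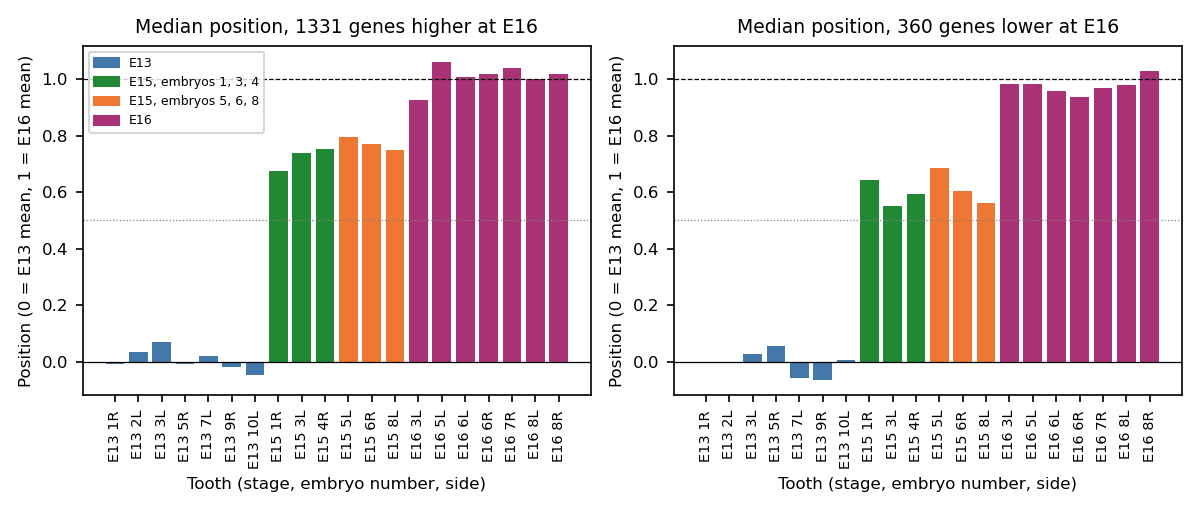
Median position on the log2 scale of each of the 20 teeth between the E13 mean (0) and the E16 mean (1), over the 1331 genes higher at E16 (left) and the 360 genes lower at E16 (right). The E15 teeth sit between 0.677 and 0.797 for the rising genes and between 0.550 and 0.686 for the falling genes, apart from every E13 and E16 tooth.

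Tooth by tooth, the median position of the rising genes was 0.677, 0.738, and 0.753 for the E15 teeth of embryos 1, 3, and 4, and 0.797, 0.772, and 0.748 for those of embryos 5, 6, and 8. For the falling genes the same teeth had 0.642, 0.550, and 0.592, and 0.686, 0.606, and 0.562. The E13 and E16 teeth define the scale and lie near 0 and 1 by construction, with a highest value of 0.0701 at E13 and a lowest of 0.927 at E16 for the rising genes. The median of no E15 tooth reached either range. The 2 sets of E15 teeth overlapped in the median position of both groups of genes, although they disagreed on many single genes, as described further on.

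Counts of list members are to be read beside the shares over all genes tested. These were 18.3% higher and 8.49% lower at E15 than at E13. At E16, 3.64% were higher and 2.68% lower than at E15, and 21.7% higher and 14.7% lower than at E13. Of 22 dental epithelium markers tested, 19 rose from E13 to E15 and 5 rose from E15 to E16, and none fell. Without the left E16 tooth of embryo 3, 8 rose from E15 to E16. Their median log2 change was 1.04 in the first step and 0.29 in the second, against 0.04 and -0.01 over all genes tested. Among the 15 that changed by at least 1 over the whole interval, 10 were complete and 5 partway. Dsp, which encodes desmoplakin of the desmosomes, had 1465, 1589, and 1784 CPM in the E15 teeth of embryos 1, 3, and 4 and 1772, 1841, and 1922 CPM in those of embryos 5, 6, and 8. The 7 E13 teeth ranged from 517 to 739 CPM with a median of 579, and the 7 E16 teeth from 1024 to 2108 CPM with a median of 1979. The E15 teeth lay above every E13 tooth and inside the range of the E16 teeth, whose lowest value is that of the left tooth of embryo 3, with a position of 0.97 ± 0.09 (SD, n = 6). The rise to E15 was 1.53 ± 0.14 (SE) on the log2 scale (edgeR, adjusted p = 1.22e-08), and the step to E16 of 0.08 ± 0.14 did not pass the test (edgeR, adjusted p = 0.852).

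The keratin gene Krt17 was at 0.86 ± 0.10 (SD, n = 6). Its step from E15 to E16 did not pass the test with all teeth (edgeR, adjusted p = 0.303) but did without the left E16 tooth of embryo 3 (edgeR, adjusted p = 0.0391). Trp63, needed for stratified epithelium, and Perp, one of its targets in cell junctions, rose in both steps, and their positions were 0.74 ± 0.16 and 0.61 ± 0.11. Perp had between 114 and 171 CPM over the 6 E15 teeth, where the highest E13 tooth had 67.6 and the lowest E16 tooth 222 CPM.

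All 15 macrophage genes tested were higher at E16 than at E13, 14 were higher at E15 than at E13, and none passed the test between E15 and E16 in either direction. Of the 13 with a change of at least 1, 10 were complete, and the median position was 0.945. Mrc1, the mannose receptor of tissue macrophages, had 36.8, 52.9, 38.04, 43.5, 49.5, and 39.9 CPM at E15, in the order of embryos 1, 3, 4, 5, 6, and 8. Its E13 teeth ranged from 11.8 to 21.4 CPM and its E16 teeth from 34.0 to 50.1 CPM, so that E15 and E16 overlapped while E13 was apart, and its position was 1.01 ± 0.15 (SD, n = 6). Csf1r, the receptor for the growth factor that macrophages need, was at 0.91 ± 0.10, and Ctss, a lysosomal protease, at 1.22 ± 0.14. The second step of Mrc1 did not pass the test (edgeR, adjusted p = 0.986). The summed level of the 15 genes was 189 to 257 CPM in the teeth of embryos 1, 3, and 4, 223 to 268 CPM in those of embryos 5, 6, and 8, and 217 to 287 CPM at E16, against 73.5 to 121 CPM at E13.

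Among genes of the primary enamel knot, some were complete at E15 and others rose further. Of 19 tested, 17 were higher and 1 was lower at E15 than at E13, and 6 were higher and 1 lower at E16 than at E15. Without the left E16 tooth of embryo 3, 8 were higher and 1 lower at E16 than at E15. Fgf3, which signals from the knot and the mesenchyme, had 10.3, 10.4, and 10.7 CPM in the teeth of embryos 1, 3, and 4 and 12.1, 5.35, and 8.77 CPM in those of embryos 5, 6, and 8, where no E13 tooth exceeded 1.33 CPM and the E16 teeth ranged from 8.61 to 14.8 CPM. Its position was 0.92 ± 0.07 (SD, n = 6), past the midpoint (edgeR, adjusted p = 7.26e-05). Fgf4, the knot ligand, was at 0.94 ± 0.18, Dkk4, a secreted Wnt inhibitor, at 0.87 ± 0.13, and Edar, the ectodysplasin receptor, at 0.88 ± 0.13. The second step did not pass the test for any of these (edgeR, adjusted p = 0.610, 0.938, 0.468, and 0.371 for Fgf3, Fgf4, Dkk4, and Edar).

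Shh, the knot ligand that drives growth of the epithelium, rose in both steps. It had 52.2, 54.6, and 48.5 CPM in the E15 teeth of embryos 1, 3, and 4 and 68.6, 84.5, and 67.4 CPM in those of embryos 5, 6, and 8. The E13 teeth ranged from 1.09 to 9.85 CPM with a median of 4.68, and the E16 teeth from 67.2 to 234 CPM with a median of 198. All E15 teeth lay above all E13 teeth, and the lowest E16 tooth, the left tooth of embryo 3, was the only E16 tooth inside the E15 range. The rise to E15 was 3.70 ± 0.35 (SE) on the log2 scale (edgeR, adjusted p = 2.74e-08) and the rise to E16 1.55 ± 0.32 (edgeR, adjusted p = 0.00297), with a position of 0.73 ± 0.06 (SD, n = 6). The transcription factor genes Sp6, needed for enamel formation, and Msx2, a target of Bmp signals, and the Wnt ligand gene Wnt10a rose in both steps as well, at positions of 0.77 ± 0.08, 0.63 ± 0.13, and 0.70 ± 0.09. Fgf9, another epithelial Fgf ligand, was the least advanced of the 13 enamel knot genes that changed by at least 1, at 0.39 ± 0.25. Foxi3, an epithelial factor downstream of ectodysplasin, was at 0.69 in the teeth of embryos 1, 3, and 4 and at 0.94 in those of embryos 5, 6, and 8, and without the left E16 tooth of embryo 3 its second step passed the test (edgeR, adjusted p = 0.0085).

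**Figure D2:**
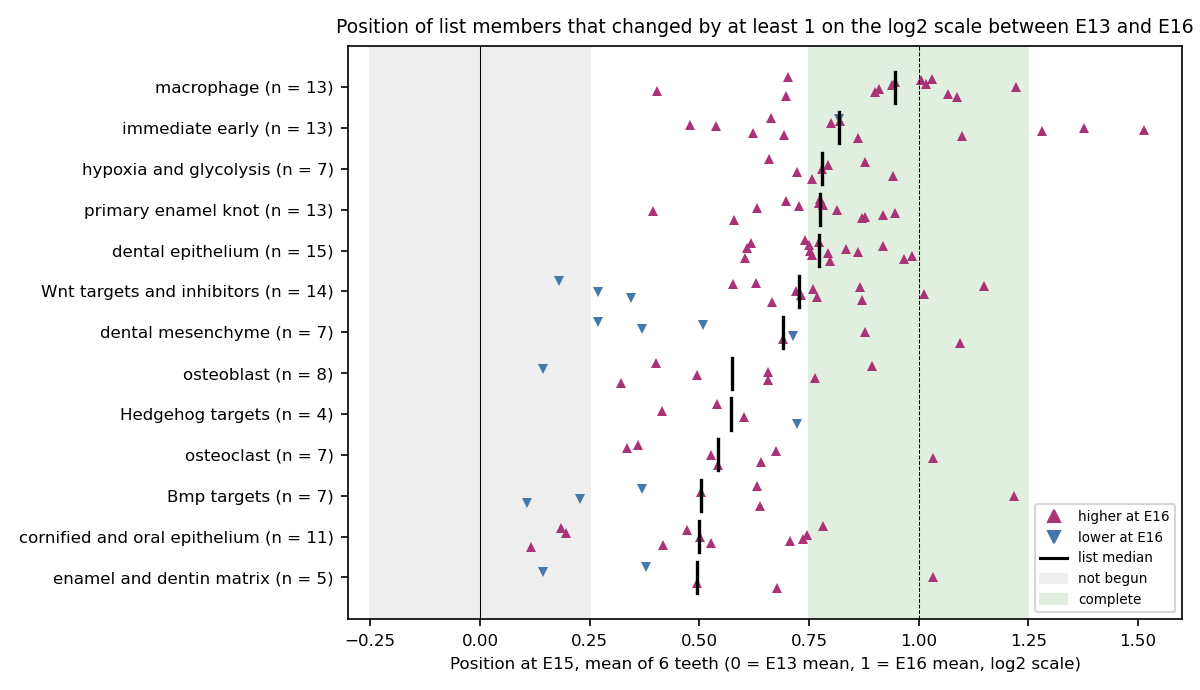
Position at E15 (mean of 6 teeth) of the members of 13 gene lists with a log2 change of 1 or more between E13 and E16, with triangles up for genes higher and down for genes lower at E16 and a black bar at the median of each list. The macrophage list has the highest median (0.945), and the cornified and oral epithelium list (0.5) and the enamel and dentin matrix list (0.494) have the lowest medians of the lists shown.

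Of 7 transcriptional targets of Hedgehog signals tested, 3 rose and 2 fell from E13 to E15, and 4 rose and none fell from E15 to E16. Ptch1, the Shh receptor and a target of the pathway, had 1082, 900.0, and 971 CPM in the teeth of embryos 1, 3, and 4, and 687, 733, and 608 CPM in those of embryos 5, 6, and 8. The E13 teeth ranged from 428 to 613 CPM and the E16 teeth from 1275 to 1780 CPM. The teeth of embryos 1, 3, and 4 lay between the E13 and E16 ranges, and 1 of the teeth of embryos 5, 6, and 8 fell inside the E13 range, with positions of 0.59 and 0.24 for the sets. Both steps passed the test, by 0.67 ± 0.13 and 0.90 ± 0.13 (SE) on the log2 scale (edgeR, adjusted p = 0.000403 and 8.7e-05). Hhip, another feedback inhibitor of the pathway, rose in both steps too, at a position of 0.60 ± 0.19. Gli1, the transcription factor whose level follows the pathway, was between 193 and 274 CPM in the 6 E15 teeth, where E13 ranged from 182 to 247 CPM and E16 from 309 to 383 CPM. Its first step of 0.10 ± 0.09 did not pass the test (edgeR, adjusted p = 0.436) and its second, of 0.58 ± 0.09, did (edgeR, adjusted p = 0.000212). Gas1, a co-receptor that the pathway represses, fell in the first step and was at 0.72 ± 0.20.

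Of 22 genes that are targets or secreted inhibitors of the Wnt pathway, 14 rose and 1 fell from E13 to E15, and 3 rose and 3 fell from E15 to E16. Without the left E16 tooth of embryo 3, 8 rose and 3 fell in the second step. Rnf43, which removes Wnt receptors from the cell surface, was complete at 1.01 ± 0.16 (SD, n = 6), with 46.3 to 66.1 CPM at E15 against 51.2 to 57.8 CPM at E16. Notum and Wif1, both secreted inhibitors, rose in both steps and were at 0.73 ± 0.14 and 0.63 ± 0.12. Other secreted inhibitors fell. Sfrp2 had 360.1, 456, 488, 346, 465, and 415 CPM at E15, in the order of embryos 1, 3, 4, 5, 6, and 8, below the 566 to 709 CPM at E13 and above the 45.9 to 207 CPM at E16. Its position was 0.27 ± 0.09, and its first step of -0.57 ± 0.20 (SE) on the log2 scale passed the test with all 6 teeth (edgeR, adjusted p = 0.0370) but not with either set alone (edgeR, adjusted p = 0.205 and 0.0632). Its second step was -1.48 ± 0.20 (edgeR, adjusted p = 3.84e-05). Frzb was at 0.34 ± 0.12, and its first step did not pass the test with all teeth (edgeR, adjusted p = 0.0563) but did without the left E16 tooth of embryo 3 (edgeR, adjusted p = 3.54e-05).

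Of 19 dental mesenchyme genes tested, 5 fell from E13 to E15 and 6 fell from E15 to E16, while 2 and 1 rose. Over all genes tested, 8.49% and 2.68% fell and 18.3% and 3.64% rose. The share of mesenchyme genes that rose in the second step is near the last of these. Without the left E16 tooth of embryo 3, 6 rose and 7 fell in the first step, and with the E15 teeth of embryos 1, 3, and 4 alone 2 fell in it. The summed level of the 19 genes was 8236 to 9237 CPM in the teeth of embryos 1, 3, and 4 and 8144 to 8913 CPM in those of embryos 5, 6, and 8, which overlapped with the 7807 to 8773 CPM at E13 and lay above the 4463 to 8125 CPM at E16. Pax9, a transcription factor that the mesenchyme needs to pass the bud stage, had 431, 409, and 320.0 CPM in the E15 teeth of embryos 1, 3, and 4 and 472, 504, and 508 CPM in those of embryos 5, 6, and 8. The E13 teeth ranged from 395 to 513 CPM and the E16 teeth from 203 to 315 CPM, so that all 6 E15 teeth lay above the E16 range. Its first step was 0.00 ± 0.11 (SE) on the log2 scale (edgeR, adjusted p = 0.992) and its second -0.77 ± 0.11 (edgeR, adjusted p = 8.51e-05). Msx1, another factor of the bud mesenchyme, fell in both steps and was at 0.37 ± 0.09 (SD, n = 6), and Prrx1 fell in both steps by nearly the same amount, -0.75 ± 0.11 and -0.76 ± 0.11 (SE), at 0.51 ± 0.18. Lhx8 was further on at 0.71 ± 0.25. The first step of Msx1 did not pass the test with the teeth of embryos 1, 3, and 4 alone (edgeR, adjusted p = 0.149).

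Among 14 Bmp target genes tested, 5 rose and 2 fell from E13 to E15, beside 18.3% and 8.49% of all genes tested. From E15 to E16, 3 rose and 3 fell, beside 3.64% and 2.68%. Among the 7 that changed by at least 1 over the whole interval, 2 were not begun, 4 partway, and 1 complete. Their median position was 0.298 in the teeth of embryos 1, 3, and 4 and 0.683 in those of embryos 5, 6, and 8. The Bmp antagonist genes Bmper and Grem1 were not begun at E15. Bmper had 62.4, 45.7, 51.9, 54.4, 40.7, and 41.8 CPM at E15, in the order of embryos 1, 3, 4, 5, 6, and 8, against 49.1 to 62.0 CPM at E13 and 9.61 to 15.7 CPM at E16. The E15 teeth overlapped with E13 and lay above all E16 teeth, and the position was 0.11 ± 0.11 (SD, n = 6), short of the midpoint (edgeR, adjusted p = 1.22e-05). Grem1, with 5.40 to 9.59 CPM at E15, was at 0.23 ± 0.13. Id1, an immediate target of Bmp signals, was 36.3 to 48.2 CPM at E15 and 61.5 to 84.1 CPM at E16, and it too passed the test in the second step only, by 0.78 ± 0.11 (SE) on the log2 scale (edgeR, adjusted p = 8.51e-05). Bambi, a membrane-bound Bmp antagonist, differed between the sets, with 27.2 to 34.7 CPM in the teeth of embryos 1, 3, and 4 and 63.9 to 73.0 CPM in those of embryos 5, 6, and 8, positions of 0.25 and 1.02.

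**Figure D3:**
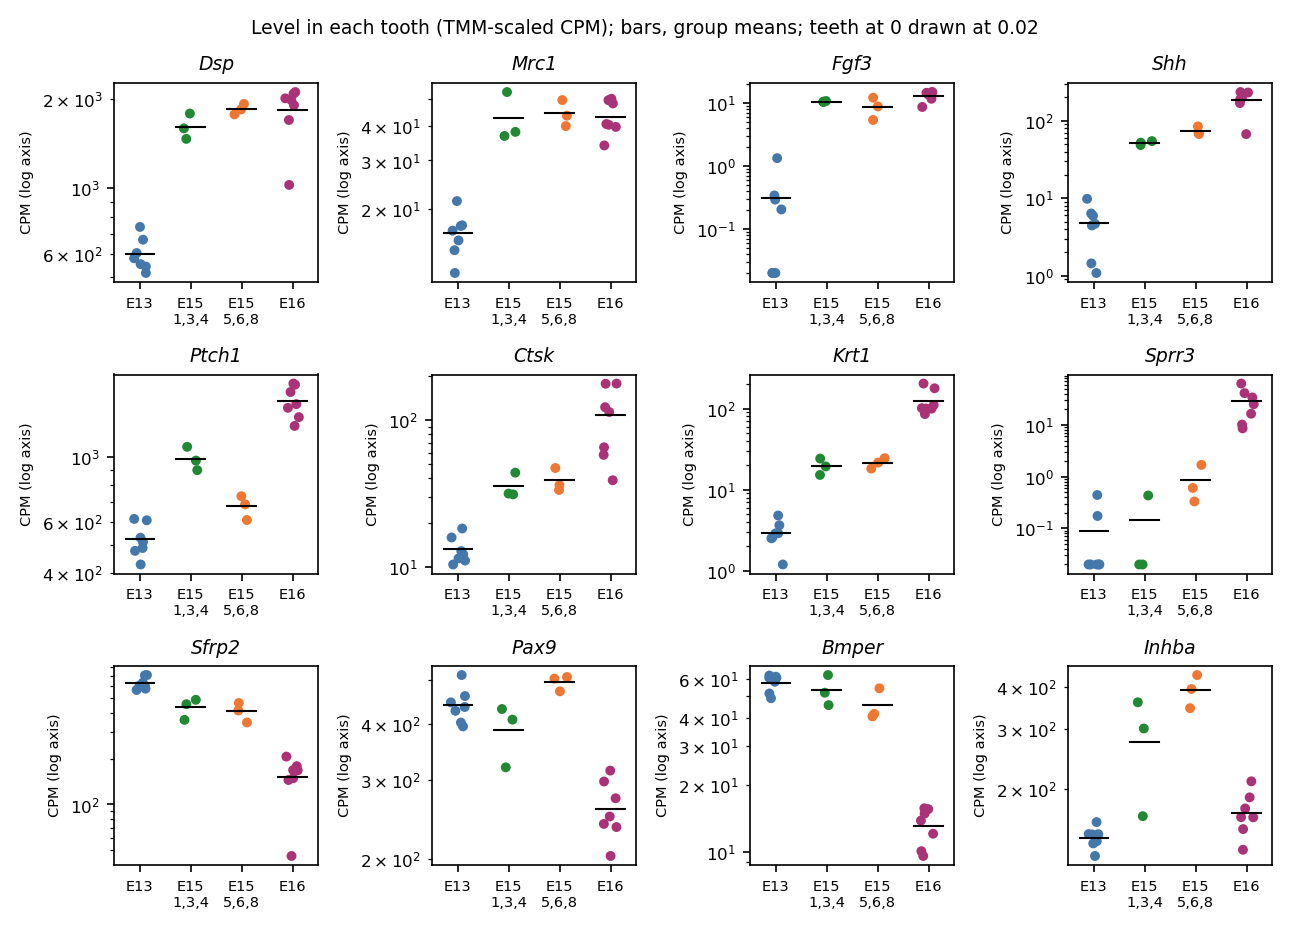
Level of 12 genes in each tooth as TMM-scaled CPM on a log axis, with the E15 teeth shown as 2 sets and black lines at the group means. Dsp, Mrc1, and Fgf3 at E15 overlap with E16, Ptch1, Ctsk, and Krt1 lie between the stages in most teeth, Shh does so in 3 of 6 teeth, Pax9, Bmper, and Sprr3 overlap with or lie near E13, and Inhba is highest at E15.

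Most osteoclast genes that changed by at least 1 were partway at E15. All 11 osteoclast genes tested were higher at E16 than at E13, 6 rose from E13 to E15, and 9 rose from E15 to E16, which fell to 5 and 4 genes with either set of E15 teeth alone. Ctsk, the protease with which osteoclasts degrade bone collagen, had 31.5, 43.8, 31.1, 36.0, 33.4, and 47.1 CPM at E15, in the order of embryos 1, 3, 4, 5, 6, and 8. Its E13 teeth ranged from 10.4 to 18.2 CPM and its E16 teeth from 38.9 to 177 CPM, so that 2 E15 teeth lay inside the E16 range and none inside that of E13. It rose by 1.5 ± 0.27 and 1.53 ± 0.27 (SE) on the log2 scale in the 2 steps (edgeR, adjusted p = 0.000169 and 0.000647), at a position of 0.53 ± 0.09 (SD, n = 6). Acp5, the tartrate-resistant acid phosphatase, was at 0.54 ± 0.09. Tcirg1, a subunit of the proton pump of osteoclasts, rose in the second step alone, by 0.70 ± 0.13 (SE, edgeR, adjusted p = 0.00148), and was at 0.09 ± 0.34 (SD). Its whole change was below 1, so this position rests on a small change. Car2, the carbonic anhydrase of osteoclasts and other cells, was the exception at 1.03 ± 0.18. Of 14 osteoblast genes, 5 rose and 3 fell in the first step and 7 rose and 1 fell in the second. Without the left E16 tooth of embryo 3, 9 rose and 1 fell in the second step. Bmp3 and the collagenase gene Mmp13 rose in both steps, each at 0.66, and Spp1, a bone matrix protein, at 0.40 ± 0.26. Phex, which regulates phosphate in mineralizing tissue, had 9.90 to 18.7 CPM at E15 and 2.46 to 8.15 CPM at E16, and it fell in the second step only, by -1.73 ± 0.20 (SE) on the log2 scale (edgeR, adjusted p = 4.44e-06).

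All 11 genes tested of the cornified and oral surface epithelium were higher at E16 than at E13, 8 rose in the first step and 9 in the second, and of the 11 positions 3 were not begun, 7 partway, and 1 complete. Cnfn and Sprr3 did not pass the test in the first step (edgeR, adjusted p = 0.0542 and 0.0710). Krt13, a keratin of the oral surface, had 44.6, 162, 84.6, 99.8, 100.3, and 139.6 CPM at E15 in the order of embryos 1, 3, 4, 5, 6, and 8, between the 0.163 to 2.19 CPM of E13 and the 359 to 829.4 CPM of E16, at 0.74 ± 0.07 (SD, n = 6). Krt1, a keratin of cornifying cells, had 15.2 to 24.4 CPM at E15, 1.20 to 4.81 CPM at E13, and 85.3 to 203 CPM at E16, without overlap, at 0.53 ± 0.05. The small proline-rich protein gene Sprr3, which builds the cornified envelope, had 0, 0.433, and 0 CPM in the teeth of embryos 1, 3, and 4 and 0.606, 0.331, and 1.69 CPM in those of embryos 5, 6, and 8. No E13 tooth exceeded 0.442 CPM, and the E16 teeth ranged from 8.62 to 63.5 CPM. Cnfn, which encodes cornifelin, was at 0 in all E13 teeth and in 4 of the 6 E15 teeth, and its E16 teeth ranged from 4.22 to 18.4 CPM. Against the level that 3 counts over all E13 teeth would give, 0.0230 CPM, the E16 mean of 9.82 CPM was at least 426-fold higher.

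The start regions of 3 of these genes, chosen after their values were seen, are shown because all 3 genes rose from E15 to E16 (edgeR, adjusted p = 4.75e-05 for Sprr1a, 6.03e-06 for Sprr3, and 2.33e-05 for Krt13). The windows hold the 150 bases before the annotated start of the transcript, from RefSeq on GRCm38.p6, with capitals for matches to TGANTCA, the binding sequence of AP-1 factors, and to TATAAA, the TATA box, searched on both strands. Sprr1a (chr3:92485882-92486031, minus strand) and Sprr3 (chr3:92458721-92458870, minus strand) are neighbours on chromosome 3, and Krt13 is at chr11:100121567-100121716 (minus strand).
Sprr1a: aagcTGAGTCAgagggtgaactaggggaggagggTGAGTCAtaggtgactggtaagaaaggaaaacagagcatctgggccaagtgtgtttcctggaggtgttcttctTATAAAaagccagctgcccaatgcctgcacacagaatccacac
Sprr3: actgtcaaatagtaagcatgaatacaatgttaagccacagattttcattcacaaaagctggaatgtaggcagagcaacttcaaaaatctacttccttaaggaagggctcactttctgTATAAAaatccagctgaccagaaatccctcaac
Krt13: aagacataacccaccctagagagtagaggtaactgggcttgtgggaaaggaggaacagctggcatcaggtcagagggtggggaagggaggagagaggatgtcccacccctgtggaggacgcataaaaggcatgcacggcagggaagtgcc

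The Sprr1a window holds 2 matches to TGANTCA and 1 to TATAAA, the Sprr3 window holds 1 to TATAAA, and the Krt13 window holds neither. In windows of 250 bases before the start, 6.75% of all 32817 held TGANTCA and 12.4% held TATAAA. Of the 11 oral epithelium genes tested, 7 had a window, and 3 of the 7 held TGANTCA and 3 held TATAAA. A match is a description of these letters only. Sprr1a had 0.613, 0.379, and 0.300 CPM in the E15 teeth of embryos 1, 3, and 4, 1.87, 1.47, and 2.31 CPM in those of embryos 5, 6, and 8, and 3.71 to 17.3 CPM at E16, a position of 0.47 ± 0.17 (SD, n = 6).

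Of 37 mitotic cell cycle genes, 17 fell from E13 to E15 and none passed the test between E15 and E16, with a median log2 change of -0.31 and -0.01 in the 2 steps. Without the left E16 tooth of embryo 3, 26 fell in the first step and 2 rose in the second, and with the E15 teeth of embryos 5, 6, and 8 alone 10 fell and 4 rose in the first step. The summed level of the 37 genes was 4571 to 4844 CPM in the teeth of embryos 1, 3, and 4 and 6355 to 6366 CPM in those of embryos 5, 6, and 8, against 5963 to 6426 CPM at E13 and 4968 to 5942 CPM at E16. It was thus below the E13 range in the first set and inside it in the second. Of 22 genes of hypoxia and glycolysis, 13 rose in the first step and 1 in the second. That 1 gene is near the 3.64% of all genes tested that rose in the second step. Without the left E16 tooth of embryo 3, 5 of the hypoxia and glycolysis genes rose in the second step. Of 25 immediate early genes, which respond to growth factors and to handling of the tissue, 15 rose and 2 fell in the first step. None passed the test in the second. Over all genes tested 18.3% rose and 8.49% fell in the first step, and the share of immediate early genes that fell is near the latter. Among 9 red blood cell genes, 1 was higher and 4 were lower at E16 than at E13, and 1 rose and 2 fell in each step. The embryonic globin gene Hbb-y had 5.41 to 12.3 CPM at E15, below the 242 to 464 CPM at E13 and above the 1.18 to 3.17 CPM at E16. Of 19 skeletal muscle genes, which mark tissue around the germ, none rose and 2 fell in the first step. That share is near the 8.49% of all genes tested that fell. The summed level of the 19 muscle genes was 65.2 to 92.3 CPM in the E15 teeth of embryos 1, 3, and 4. It was 112 to 192 CPM in those of embryos 5, 6, and 8, against 76.2 to 1797 CPM at E13 and 67.8 to 263 CPM at E16. Its part in the results was not tested.

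By the keystone categories, which sort genes by the effect of their loss on tooth development, the 15 progression genes, required to pass a stage, had 8 members higher and 2 lower at E15 than at E13. Of the 28 shape genes 13 were higher and 3 lower, of 21 tissue genes 7 and 2, of 10 double genes 2 and 3, and of 88 dispensable genes 40 and 7, beside 18.3% higher and 8.49% lower over all genes tested. The shares of double genes that were higher and of tissue and dispensable genes that were lower are near these. Between E15 and E16, 3 progression genes rose and 3 fell, 3 shape genes rose and 1 fell, and 14 dispensable genes rose and 6 fell. In the tissue list 2 rose and 0 fell, and in the double list 1 rose and 2 fell. Over all genes tested, 3.64% were higher and 2.68% lower at E16 than at E15. The share of shape genes that fell is near the latter. Without the left E16 tooth of embryo 3, 3 progression, 6 shape, 18 dispensable, 3 tissue, and 4 double genes rose. In the same order, 3, 1, 6, 1, and 2 fell, beside 807 higher and 584 lower of all 13419 genes tested without that tooth. The median positions of members that changed by at least 1 were 0.734 for 4 progression genes, 0.813 for 9 shape genes, 0.740 for 7 tissue genes, 0.702 for 6 double genes, and 0.678 for 33 dispensable genes, against 0.713 over all 1691 genes. By set, embryos 1, 3, and 4 first and embryos 5, 6, and 8 second, they were 0.655 and 0.813 for progression genes. For shape genes they were 0.728 and 0.838, for tissue genes 0.935 and 0.593. For double genes they were 0.597 and 0.899, and for dispensable genes 0.713 and 0.637. Among the pathway lists, 19 of 61 Wnt, 19 of 59 Fgf, 15 of 54 Tgfb, 7 of 17 Eda, 6 of 39 Hedgehog, and 6 of 30 Notch genes rose in the first step, beside 18.3% of all genes tested, to which the Hedgehog and Notch shares are near. In the second step 6, 2, 3, 0, 5, and 1 genes of these lists rose, beside 3.64% of all genes tested. The Fgf and Notch shares are near that. Without the left E16 tooth of embryo 3, 9 Wnt, 2 Fgf, 6 Tgfb, 0 Eda, 5 Hedgehog, and 2 Notch genes rose in the second step.

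The genes with the largest changes over the whole interval were named in each class. Among rising genes that were complete, Agt, the precursor of angiotensin, had 1.41 to 3.75 CPM at E15 and 1.51 to 6.48 CPM at E16, against at most 0.0579 CPM at E13. Odam, which encodes an enamel-associated protein, was at 1.03 ± 0.20, Cwh43 at 0.83 ± 0.11, and Dkk4 is given above. Rising and partway were Krt13, Krt4, Ly6d, and Ofcc1, and of these Ofcc1 was at 0 in all E13 teeth, 0.900 to 2.87 CPM at E15, and 4.53 to 8.35 CPM at E16. Rising and not begun were Cnfn, Sprr3, Mt3, and Fabp4. Mt3 and Fabp4 were at 0 in all E13 teeth, and no E15 tooth exceeded 0.142 CPM of Mt3 or 0.758 CPM of Fabp4. Fabp4, a fatty acid binding protein gene, lay at the limit of its class at 0.25 ± 0.38, and by the test it rose in the first step and did not pass in the second (edgeR, adjusted p = 0.0243 and 0.0832). Mt3, a brain metallothionein, was left out by the filter on low counts when the left E16 tooth of embryo 3 was omitted.

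Among falling genes, Tbx18, a T-box transcription factor, was complete, with 0.613 to 4.40 CPM at E15 against 11.6 to 64.6 CPM at E13 and 0.293 to 2.30 CPM at E16. Kcns2, Il1rapl2, and Dmrt1 were complete as well, the last at 0 in all E15 and E16 teeth, where the E13 mean of 1.02 CPM was at least 39.6-fold higher than 3 counts over the E15 teeth. Falling and partway were Hbb-y, Cntnap5b, Slitrk1, and Fgf8, the early epithelial Fgf ligand, which had 0 to 1.09 CPM at E15, 1.80 to 6.13 CPM at E13, and 0 to 0.277 CPM at E16. Falling and not begun were Cilp, a cartilage matrix protein gene, with 4.01 to 8.003 CPM at E15 against 3.65 to 8.97 CPM at E13 and 0.0657 to 1.13 CPM at E16, and B3galt2 and Grem1. So was Slc5a7, the choline transporter gene of cholinergic neurons, with 10.2 to 25.3 CPM at E15 against 1.38 to 5.59 CPM at E16. The second step passed the test for Cilp, Slc5a7, B3galt2, and Grem1 (edgeR, adjusted p = 1.56e-06, 4.05e-07, 0.00556, and 3.26e-05).

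At E15, 76 genes (0.565%) were above and 53 (0.394%) below both E13 and E16. In 18 of the 76 and 9 of the 53, all 6 E15 teeth lay outside the range of all 14 other teeth, and the mean of each set of E15 teeth lay outside both stage means in all of them. The size of the excess was larger in the teeth of embryos 5, 6, and 8 for 63 of the 76 genes above and 35 of the 53 genes below. Without the E15 tooth of embryo 4 the counts were 140 above and 85 below, and without the left E16 tooth of embryo 3 they were 134 and 92, including 74 of the 76 and 49 of the 53. With the teeth of embryos 1, 3, and 4 alone, 34 of the 76 and 25 of the 53 were called again, and with those of embryos 5, 6, and 8 alone 68 and 39 were, among 903 above and 704 below.

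Inhba, which encodes the activin subunit that the mesenchyme sends to the epithelium, was above the range. It had 359.9, 301, and 167 CPM in the E15 teeth of embryos 1, 3, and 4 and 433, 346, and 394 CPM in those of embryos 5, 6, and 8, where the E13 teeth ranged from 127 to 160.1 CPM and the E16 teeth from 133 to 211 CPM. All E15 teeth but that of embryo 4 lay above every other tooth. The rise to E15 was 1.21 ± 0.15 and the fall to E16 -0.97 ± 0.15 (SE) on the log2 scale (edgeR, adjusted p = 1.3e-06 and 0.000131). Fgf20, an enamel knot ligand downstream of ectodysplasin, had 1.73, 2.76, and 0.75 CPM and 11.5, 5.11, and 4.21 CPM in the 2 sets, and at most 1.39 CPM at E13 and 2.06 CPM at E16. Its fall to E16 did not pass the test with the teeth of embryos 1, 3, and 4 alone (edgeR, adjusted p = 0.452).

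The other named genes above the range were Ano3, Ptprq, Prelp, Tlr7, and Slc25a21. Prelp, a small leucine-rich proteoglycan of matrix, had 25.3 to 35.7 CPM in the teeth of embryos 1, 3, and 4 and 51.4 to 68.4 CPM in those of embryos 5, 6, and 8, against 4.98 to 12.7 CPM at E13 and 5.39 to 26.4 CPM at E16. In Ptprq and Slc25a21 all 6 E15 teeth lay above the other teeth, with 3.49 to 11.7 CPM and 3.35 to 10.1 CPM. With the teeth of embryos 1, 3, and 4 alone, the fall to E16 did not pass the test for Prelp, Tlr7, and Slc25a21 (edgeR, adjusted p = 0.172, 0.280, and 0.0621).

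Among the genes below the range were Sp7 and Ibsp of the osteoblast list. Sp7, the transcription factor that commits osteoblasts, had 33.4 to 65.2 CPM at E15, 49.1 to 122 CPM at E13, and 53.3 to 92.2 CPM at E16, overlapping with both. It fell by -0.70 ± 0.17 and rose by 0.66 ± 0.17 (SE) on the log2 scale in the 2 steps (edgeR, adjusted p = 0.00382 and 0.0197), and neither step passed the test with the teeth of embryos 1, 3, and 4 alone (edgeR, adjusted p = 0.0561 and 0.103). Ibsp, which encodes bone sialoprotein, had 12.1 to 52.5 CPM at E15, 25.9 to 173 CPM at E13, and 64.5 to 146 CPM at E16. Other genes below the range were Lipi, Nwd2, Col19a1, Pappa, and Slc14a1. Pappa, a protease that frees insulin-like growth factors, had 5.13, 6.87, 3.80, 2.38, 7.53, and 10.9 CPM at E15 in the order of embryos 1, 3, 4, 5, 6, and 8, where no E13 or E16 tooth was below 11.6 CPM. Col19a1, a collagen gene, had at most 0.487 CPM at E15 and at least 0.679 CPM in the other teeth.

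The difference between the 2 sets of E15 teeth is given as a description, because the sets were seen in these data. All 3 teeth of embryos 5, 6, and 8 lay above all 3 of embryos 1, 3, and 4 in 2666 genes (19.8%) and below them in 2622 (19.5%). All 12 mitochondrially encoded genes were higher in the teeth of embryos 5, 6, and 8, with a median difference of 3.15 on the log2 scale. Of 52 ribosomal protein genes 33 were higher and 3 lower in them, with a median of 0.75. Rps26 had 153, 131, and 174 CPM in the teeth of embryos 1, 3, and 4 and 1336, 1451, and 1459 CPM in those of embryos 5, 6, and 8. Ctcfl, a testis-expressed relative of Ctcf, was lower, with 118, 169, and 317 CPM against 15.3, 15.1, and 7.59 CPM. The tooth of embryo 4 was apart from embryos 1 and 3 in mt-Atp8, with 0.100 CPM against 217 and 161 CPM.

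A like difference was seen between the teeth of an embryo at E16. The right tooth of embryo 8 had 4.68% of its counts on mitochondrially encoded genes and the left tooth 2.14%, and Rps26 was 614 and 140.4 CPM and Ctcfl 38.1 and 86.1 CPM in them. Over the 12638 genes with a mean of at least 1 CPM at E15, the difference between the sets of E15 teeth and the difference between these 2 teeth had a Pearson correlation of 0.566 and a Spearman correlation of 0.648 across genes, which are not independent replicates. For the right and left teeth of embryo 6 at E16 the Pearson correlation was 0.157. The exonic length of a gene was taken as the bases covered by all its exons. Its median was 4193 bases for the genes higher in the teeth of embryos 5, 6, and 8 and 4984 bases for those lower. Over all genes tested it was 4604 bases. The part of these library traits in the differences between stages was not tested.

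**Figure D4:**
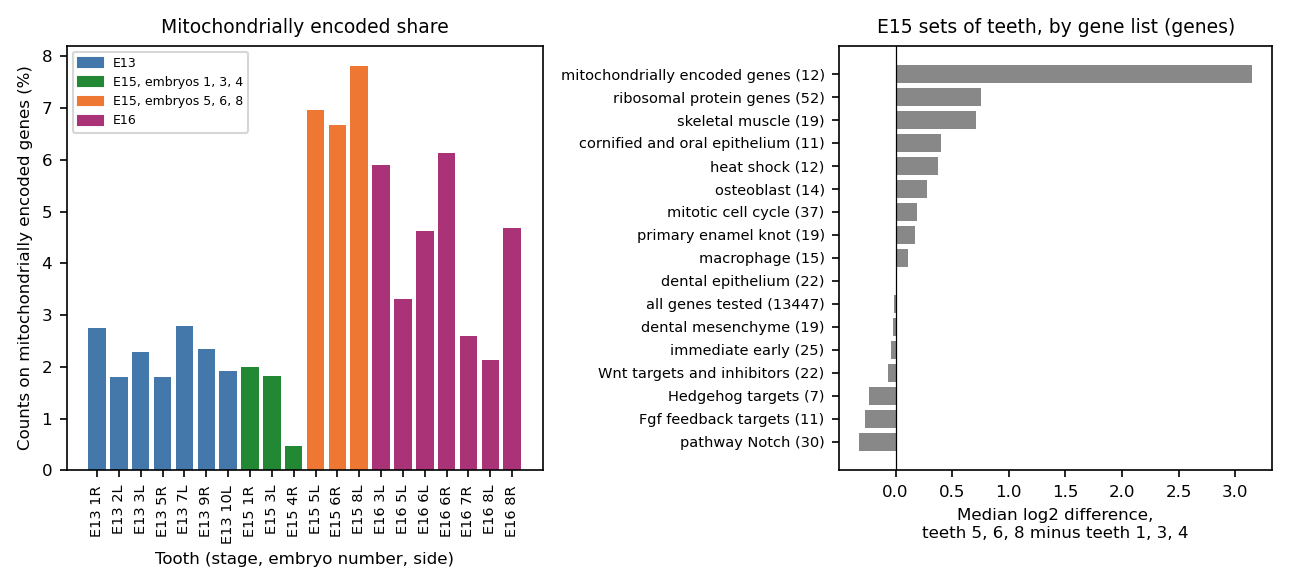
Left, share of counts on mitochondrially encoded genes in each of the 20 teeth, in percent. Right, median log2 difference between the E15 teeth of embryos 5, 6, and 8 and those of embryos 1, 3, and 4 for 16 gene lists and all genes tested, where mitochondrially encoded genes (3.15) stand furthest from 0 and dental epithelium genes are at 0.

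Among the tooth gene lists, the median log2 difference was 0.00 for dental epithelium, -0.02 for dental mesenchyme, 0.11 for macrophage, and 0.18 for enamel knot genes, with no overlap in 6 of 22, 10 of 19, 3 of 15, and 8 of 19 genes, beside the 19.8% above and 19.5% below over all genes tested. By direction, 3 lay above and 3 below in the teeth of embryos 5, 6, and 8 for dental epithelium, and 5 and 5 for dental mesenchyme. For macrophage genes these were 3 and 0, and for enamel knot genes 7 and 1. The enamel knot count without regard to direction is near that of all genes, but its split is uneven. Of the 1691 genes placed between the stages, 472 (27.9%) did not overlap between the sets. By set, 650 genes were complete in the teeth of embryos 1, 3, and 4 and 574 in those of embryos 5, 6, and 8, of which 279 were complete in both. The not begun genes were 125 and 177, with 42 in both, and the genes beyond the E16 level 75 and 219, with 47 in both. In all, 758 genes (44.8%) were in the same class in both sets. The median position was close in the sets for some lists. These include dental epithelium (0.799 and 0.8), macrophage (0.914 and 0.964), osteoclast (0.544 and 0.562), and oral epithelium genes (0.512 and 0.539). Others were further apart, among them Bmp target genes (0.298 and 0.683), keystone tissue genes (0.935 and 0.593), and keystone double genes (0.597 and 0.899). Dental mesenchyme genes were also further apart (0.545 and 0.866). Their median over all E15 teeth was 0.691, or 0.501 without the left E16 tooth of embryo 3.

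The E14 teeth were counted in another table with another program, so their positions between E13 and E16 were computed within that table and are set side by side with those of E15 without a test. Over the 1197 rising genes that changed by at least 1 in both tables, the median position was 0.408 at E14 and 0.729 at E15, and over 335 falling genes it was 0.334 and 0.601. The dental epithelium list had 0.435 and 0.772, the macrophage list 0.596 and 0.975, the cornified and oral epithelium list 0.232 and 0.5, and the osteoclast list 0.510 and 0.542 over the same genes. The enamel knot list had 0.773 and 0.775. Within it, Fgf4 was at 1.6 ± 0.17 and Fgf3 at 1.17 ± 0.05 at E14 (SD, n = 7), and Shh at 0.75 ± 0.04, where its E15 position is 0.73 ± 0.06 (SD, n = 6). Gli1 had 0.84 ± 0.25 at E14 and 0.15 ± 0.26 at E15, Id1 0.86 ± 0.19 and -0.31 ± 0.24, and Spp1 1.03 ± 0.07 and 0.40 ± 0.26. Gli1 and Id1 changed by less than 1 on the log2 scale from E13 to E16 at E15's table, so their positions rest on a small change. Sfrp2 had 0.06 ± 0.07 and 0.27 ± 0.09, and Bmper -0.09 ± 0.09 and 0.11 ± 0.11.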

How the data were processed

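RNAseq of single molar tooth germs was analyzed. The authors deposited estimated counts per gene made with Salmon (version 0.99.0, after FastQC 0.11.8 and Trimmomatic 0.39, on GRCm38, per the labels of the E15 samples) as whole numbers without normalization, for 14185 genes and 20 teeth of E13, E15, and E16. How these genes were chosen is not given in the sources used here. The authors also deposited raw HTSeq counts per gene after alignment with STAR for E13, E14, and E16, used here for E14 alone and for an alternative choice of genes.

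Genes were kept by filterByExpr (13447 genes, 738 set aside), scaled by TMM, and fitted with a factor for stage over the 20 teeth (edgeR 4.0.16, R 4.3.3, glmQLFit robust, glmQLFTest, Benjamini-Hochberg adjusted p below 0.05). SE values are the log2 change divided by the square root of F. Positions used log2 CPM with a prior count of 2, with the E13 and E16 means as fixed ends, so that their SD holds the spread of the E15 teeth only. The coefficient of variation between teeth, beyond counting error, was 22.7% in this fit. Within each stage, no 2 teeth agreed within sampling noise (chi-square per degree of freedom at least 6.72). The E16 teeth from shared embryos were counted singly, and p-values measure the spread between teeth. Embryo numbers are shared between stages without shared animals, and same-numbered teeth did not deviate together (correlations from -0.241 to 0.200 over 12 pairs). Floors and counting limits cover counting error only.

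Named genes were, among genes with no overlap of E13 and E16 teeth, the 4 rising and 4 falling with the largest change in each of the not begun, partway, and complete classes, the 6 genes furthest above and below the range, and members of the gene lists. Symbols that are only a clone number were left out, and some genes named by this rule are not reported here. The gene lists, the classes, and the stage comparison were chosen with earlier results of these data known. Symbols and coordinates are from GENCODE M21 (GRCm38), and 5 tested genes have no symbol. The fit was tested on simulated data. Alternatives were other scaling and filters, DESeq2 (version 1.42.0), other position scales and class limits, each tooth left out, each set of E15 teeth alone, teeth of an embryo summed, and side or embryo number as a factor. Plots were made with matplotlib 3.10.9 in Python 3.11.15.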

Additional observations from a re-analysis of the deposited data

Results flagged for a closer look

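Single teeth that lay far from the others of their stage were found by the gap to the nearest tooth as a share of the range of the stage (Dixon's test at the 95% level). Of 324 groups tested, over 103 genes and 5 library measures, 32 had such a tooth, 7 at E13, 6 at E15, and 19 at E16. The genes were those chosen for the text with results known, and the groups share teeth. A chance rate is therefore not set beside this count.

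The left E16 tooth of embryo 3 was this tooth in 19 groups. It was the lowest of 7 in the epithelial and enamel knot genes Dsp (1024 CPM), Krt17 (549.9 CPM), Foxi3 (25.4 CPM), Shh (67.2 CPM), Sp6 (113 CPM), Msx2 (24.5 CPM), and Wnt10a (13.4 CPM). It was also the lowest in the signaling genes Smo (169 CPM), Wif1 (72.0 CPM), Sfrp2 (45.9 CPM), Frzb (43.6 CPM), Dusp6 (90.1 CPM), and Axin2 (71.9 CPM), and in Msx1 (111 CPM), Twist1 (34.3 CPM), and Alpl (71.3 CPM). It was the highest in Perp (398 CPM), Ctss (16.7 CPM), and Lum (523 CPM).

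At E15, the right tooth of embryo 4 was the highest in Smo (322 CPM) and the lowest in Prrx1 (670.1 CPM), Id4 (33.2 CPM), and Phex (9.90 CPM). The right tooth of embryo 6 was the highest in Fabp4 (0.758 CPM), and the left tooth of embryo 5 was the lowest in Il1rapl2, at 0 CPM.

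At E13, the highest tooth stood apart in Agt (0.0579 CPM), Dkk4 (0.0970 CPM), Odam (0.290 CPM), Cwh43 (0.379 CPM), and Bmp4 (71.4 CPM), and the lowest in Ptprq (0.884 CPM) and Tlr7 (0.0631 CPM). The E13 medians of Agt, Dkk4, and Cwh43 were 0 CPM and that of Odam was 0.0485 CPM. The flags of these genes therefore rest on very few counts.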

How the results depend on the processing

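Of 169 values under alternatives other than left-out teeth, 135 stayed within the limits set for them and 34 moved. Of 340 values with a tooth left out, 330 stayed and 10 moved. Where values moved, the cause was not tested. With the E15 teeth of embryos 1, 3, and 4 alone, 655 genes were lower at E15 than at E13, 575 lower at E16 than at E15, 428 past the midpoint, and 40 beyond the E13 level. With those of embryos 5, 6, and 8 alone, these counts were 2569, 1375, 2000, and 63, with 1442 higher at E16 than at E15, 263 short of the midpoint, 903 above and 704 below the range, 193 not begun, and 247 beyond the E16 level. DESeq2 gave 1734 lower at E15 than at E13, 737 higher at E16 than at E15, and 80 below the range. Summing the teeth of an embryo left 35 below the range, and fitting 2 stages only left 217 lower at E16 than at E15. On the linear CPM scale the median positions were 0.622 (rising) and 0.725 (falling), in the opposite order to the log2 scale. Over every called gene the classes from beyond E13 to beyond E16 held 56, 381, 2168, 1976, and 314 genes, with a falling median of 0.695, and with genes called on HTSeq counts 21 lay beyond E13.

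With a tooth left out, genes higher at E15 than at E13 ranged from 2126 to 2954 and lower from 897 to 1730, genes higher at E16 than at E15 from 395 to 807 and lower from 282 to 584, and genes higher at E16 than at E13 from 2686 to 3198 and lower from 1702 to 2461. Genes past the midpoint ranged from 577 to 1040, short of it from 63 to 137, above the range from 57 to 140, and below it from 41 to 92. The classes ranged from 10 to 22 (beyond E13), 108 to 146 (not begun), 770 to 863 (partway), 620 to 684 (complete), and 71 to 107 (beyond E16), and the medians from 0.707 to 0.740 (rising) and 0.589 to 0.642 (falling). The left E16 tooth of embryo 3 gave 1730, 807, 584, 137, 134 above, and 92 below, and the E15 tooth of embryo 4 gave 140 above, 85 below, and 20 beyond E13. The E15 tooth of embryo 3 gave 22 beyond E13.

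The embryo number as a replicate block, which pairs no animals, gave 1325 genes higher and 502 lower at E15 than at E13, 1739 higher and 873 lower at E16 than at E13, 383 past the midpoint, and 40 short of it.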
